A study of Mus musculus with 2 samples.

Results

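The genes described here encode the organic ion uptake carriers of the Slco family, the organic anion transporting polypeptides, and of the Slc22a family, the organic cation, carnitine and organic anion transporters. All symbols in the table of TPM (a level scaled to transcript length and to the library's total) that start with Slco or Slc22a and a number were taken, which gave 41 of 24054 genes, 15 of them Slco and 26 Slc22a. RNA came from the livers of male C57BL/6 mice aged 8 to 12 weeks, either Pgrmc1 KO (Pgrmc1 -/Y, the X-linked gene deleted in the whole body by Sox2-Cre excision of exons 1 and 2) or WT. Equal masses (2.5 μg) from each of 5 mice of a genotype were pooled, and 1 library per genotype was sequenced. The spread between mice was therefore not measured, no p-value was computed, and the 95% intervals given here (Clopper-Pearson, from estimated reads) cover counting error only. Each interval is of the log2 ratio of the authors' means (estimated reads divided by a size factor), also where a log2 change of TPM stands beside it. The targeted gene checked the labels: Pgrmc1 (chromosome X, 36598193 to 36606079 of GRCm38) stood at 0.68 TPM in the KO library and 949.49 TPM in the WT library. Over the 16318 genes with an authors' mean, estimated reads summed to about 22086688 in the KO library and 29710410 in the WT library. Sequencing was paired, so an estimated read here stands for a read pair.

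Hepatocytes take up bile salts, bilirubin, hormone conjugates and drugs from sinusoidal blood through carriers of these families. Slco carriers work without sodium and carry bulky, mostly anionic compounds. Slc22a carriers take smaller cations such as monoamines, zwitterions such as carnitine, and small organic anions. Part of what they bring in is then oxidized by cytochromes P450, the enzymes that the study examined as partners of Pgrmc1, and part is exported into bile.

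Several members are near-identical copies, which bears on how their reads can be assigned. On chromosome 19, Slc22a27, Slc22a28, Slc22a29 and Slc22a30 lie in 1 block, and their coding sequences fall into close pairs. Slc22a28 and Slc22a30 were 98.8% identical over 1656 bases, Slc22a27 and Slc22a29 were 97.3% identical over 1653 bases, and identity across the pairs was between 91.7% (Slc22a27 and Slc22a28) and 92.4% (Slc22a29 and Slc22a30). The 120 coding bases below (bases 108 to 227 of each coding sequence, GENCODE vM21, GRCm38, minus strand, read 5′ to 3′) are the first stretch of that length within 1 exon in which all 4 copies were most alike, and capitals mark bases that differ from Slc22a30.
Slc22a30 (chr19:8404679-8404798, exon 1): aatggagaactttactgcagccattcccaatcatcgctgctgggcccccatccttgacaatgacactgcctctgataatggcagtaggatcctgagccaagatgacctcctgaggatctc
Slc22a28 (chr19:8131550-8131669, exon 1): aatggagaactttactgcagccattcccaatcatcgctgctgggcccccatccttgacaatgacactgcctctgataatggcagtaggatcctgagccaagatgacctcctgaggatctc
Slc22a29 (chr19:8218447-8218566, exon 1): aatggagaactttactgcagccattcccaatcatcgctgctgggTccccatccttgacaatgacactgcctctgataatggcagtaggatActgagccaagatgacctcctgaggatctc
Slc22a27 (chr19:7926544-7926663, exon 2): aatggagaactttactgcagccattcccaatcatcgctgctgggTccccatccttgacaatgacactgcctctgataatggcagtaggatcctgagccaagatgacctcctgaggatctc
Slc22a28 has 0 differences from Slc22a30 here, Slc22a27 has 1 and Slc22a29 has 2, so that a read from this stretch by itself fits both Slc22a28 and Slc22a30. RSEM, the program that made the estimates, divides such reads between them unless the other read of the pair tells the copies apart.

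Of the 41 members, 16 reached 1 TPM in at least 1 library, 12 of these had a mean level of no less than 10 TPM, and 25 stayed under 1 TPM in both libraries. With 1 TPM added, no member differed between the libraries by the fold limits of the study. On the scale (KO TPM + 1)/(WT TPM + 1), 0 of 41 reached 1.4 and 0 of 41 reached 0.6, against 0.69% and 0.158% of all 24054 genes. Among genes with a mean level of no less than 1 TPM those shares were 1.21% and 0.301%, which for 16 members also amounts to less than 1 gene. The count says little about the 25 members under 1 TPM. None of these exceeded 0.55 TPM, so with 1 TPM added none could reach 0.6 and the limit of 1.4 was barely in reach. The median log2 change of the 16 members with a mean level of no less than 1 TPM was 0.11, and 11 of 16 lay above 0, against a median of -0.01 and 45.8% above 0 over all 11623 such genes. Over all 41 members, with no filter on low values, the median was 0.014. Within each family, the members above 10 TPM stood in the same order of level in both libraries, although Slc22a5 and Slc22a28 were nearly level in KO. The 16 carriers spanned 419-fold in mean level from Slco1b2 to Slc22a3.

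**Figure D1:**
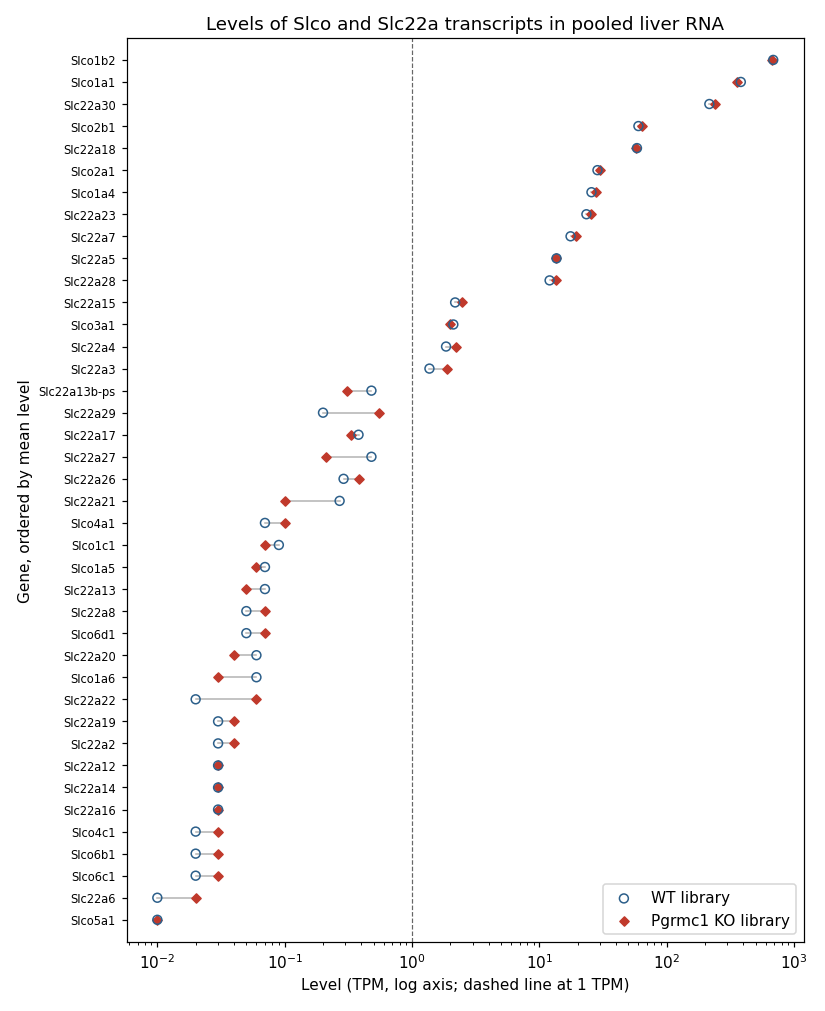
Level in TPM (log axis) of 40 members, with open circles for the WT library and diamonds for the KO library, ordered by mean level. The paired symbols of the members above 10 TPM lie close together, and the 25 members left of the dashed line at 1 TPM include the wider gaps, such as Slc22a29 at 0.55 and 0.20 TPM.

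Among the liver carriers of organic anions, Slco1b2 (chromosome 6, 141629452 to 141686646), which takes up bile salts, bilirubin and many drugs, was the most abundant member. It stood at 670.48 (KO) and 685.79 TPM (WT), a log2 change of -0.03, and the interval of its log2 ratio of the authors' means, -0.04 to 0.001, held 0. On 29555 and 40482 estimated reads, the log2 ratio of the authors' means itself was -0.02. The gap between both log2 values exceeds the upper end of the interval, so whether it holds 0 depends on the scaling between libraries. Slco1a1 (chromosome 6, 141907281 to 141946962), a carrier of bile salts and steroid conjugates that is male-biased in mouse liver, was at 355.15 (KO) and 381.61 TPM (WT). On the scale of the authors' means it was the one carrier above 10 TPM whose interval lay below 0 (-0.12 to -0.07). Its log2 change was -0.10. Its neighbour Slco1a4 (141805438 to 141856284), which carries bile salts and cardiac glycosides and is a textbook target of the pregnane X receptor PXR, was higher in the KO library, at 27.77 TPM against 25.64 TPM (log2 change 0.11, interval 0.03 to 0.23). The coding sequences of Slco1a1 and Slco1a4 are 86.7% identical, yet only 0.614% of the 100-base transcript windows of Slco1a1 occur in any other gene. The ratio of Slco1a1 to Slco1a4, which no scaling between libraries can change, was 12.8 in KO and 14.9 in WT.

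Of the other Slco carriers, Slco2b1 (chromosome 7, 99657804 to 99711340), a carrier of sulfated steroids and statins, was at 63.78 (KO) and 59.93 TPM (WT), and its interval of 0.04 to 0.16 lay above 0. The prostaglandin carrier Slco2a1 (chromosome 9), which endothelial cells express, was at 29.81 (KO) and 28.58 TPM (WT), with an interval of -0.02 to 0.17. Slco3a1, a widely expressed carrier, was at 1.97 and 2.11 TPM and had the widest interval among the Slco genes above 1 TPM, from -0.52 to 0.26 on 94 and 139 estimated reads. Summed over the family, Slco transcripts came to 1149.39 (KO) and 1184.07 TPM (WT), a log2 ratio of -0.04. The interval for the sum of the authors' means, -0.05 to -0.02, lay below 0. Slco1b2 and Slco1a1 together made up 89.2% (KO) and 90.1% (WT) of the TPM sums.

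Among organic cation carriers, Slc22a3 (OCT3, chromosome 17, 12419972 to 12507704), a carrier of monoamines, was at 1.87 (KO) and 1.37 TPM (WT), and its log2 change of 0.28 was the largest of the members above 1 TPM. On 87 and 85 estimated reads its log2 ratio of means was 0.47 (interval 0.02 to 0.92), since the addition of 1 TPM understates changes at so low a level. Slc22a2 (OCT2), a renal carrier, was at 0.04 and 0.03 TPM.

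For the carnitine and ergothioneine carriers, each interval held 0. Slc22a5 (OCTN2), the carrier through which cells take up carnitine, was at 13.48 (KO) and 13.63 TPM (WT), with an interval of -0.16 to 0.16. Slc22a4 (OCTN1), which carries ergothioneine, was at 2.20 (KO) and 1.85 TPM (WT), with an interval of -0.25 to 0.77 on 64 and 72 estimated reads. Slc22a21 (OCTN3), whose coding sequence is 90.1% identical to that of Slc22a5, was listed at 0.10 (KO) and 0.27 TPM (WT), on 2.02 and 9.69 estimated reads, with an interval of its log2 ratio from -5.12 to 0.34. It shares 10.6% of its windows with Slc22a5, and the sum of both genes was 13.58 and 13.90 TPM (interval -0.18 to 0.14).

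Among organic anion carriers of the Slc22a family, Slc22a30 (chromosome 19, 8335371 to 8405111) was at 241.32 (KO) and 216.07 TPM (WT), a log2 change of 0.16. Its log2 ratio of the authors' means was 0.17, with an interval of 0.13 to 0.22. Its near-identical copy Slc22a28 (8061958 to 8131982) was at 13.44 (KO) and 12.03 TPM (WT), a log2 change of 0.15 with an interval of -0.04 to 0.38. Slc22a30 was thus 17.96 times as abundant as its copy in each library. Slc22a28 shares 36.9% of its windows with Slc22a30, so part of its reads was divided by estimation, and their sum, which does not depend on that division, was 254.76 (KO) and 228.10 TPM (WT) (log2 ratio 0.16, interval 0.13 to 0.22). The promoters of this pair are shown because they are almost the same while the levels differ (RefSeq, GRCm38.p6, minus strand). Capitals mark bases of Slc22a28 without an equal partner in the aligned window of Slc22a30, the leading ones of which lie beyond that window.
Slc22a30 (chr19:8405056-8405355): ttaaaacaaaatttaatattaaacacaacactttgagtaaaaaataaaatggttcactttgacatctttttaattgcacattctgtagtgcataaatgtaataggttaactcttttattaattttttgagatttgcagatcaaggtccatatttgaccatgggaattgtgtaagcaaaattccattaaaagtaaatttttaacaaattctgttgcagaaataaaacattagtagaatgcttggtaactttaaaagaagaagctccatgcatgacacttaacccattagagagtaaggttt
Slc22a28 (chr19:8131933-8132232): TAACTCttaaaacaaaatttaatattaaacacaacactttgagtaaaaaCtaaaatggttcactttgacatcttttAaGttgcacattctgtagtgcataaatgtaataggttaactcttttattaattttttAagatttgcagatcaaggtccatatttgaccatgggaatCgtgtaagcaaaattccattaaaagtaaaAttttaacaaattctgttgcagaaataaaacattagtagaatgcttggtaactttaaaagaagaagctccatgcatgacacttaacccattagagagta
Over 294 aligned bases, 288 were equal (98.0%).

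The other pair of copies went in opposite directions at levels under 1 TPM. Slc22a29 (8160168 to 8253375) was listed at 0.55 (KO) and 0.20 TPM (WT), on 14.8 and 6.6 estimated reads, and its interval of 0.15 to 3.07 lay above 0. Slc22a27 (7864388 to 7966517) was listed at 0.21 and 0.48 TPM, on 5 and 17 estimated reads, with an interval of -3.13 to 0.17. These genes share 152 of their 100-base windows, 7.07% of those of Slc22a27. Their sum was 0.76 (KO) and 0.68 TPM (WT), on 20 and 24 estimated reads, and its interval of -0.76 to 1.09 held 0. What shared reads contribute to the opposite directions was not tested. Slc22a26, in the same block, had 9 estimated reads in each library, and Slc22a19 was at 0.04 and 0.03 TPM.

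**Figure D2:**
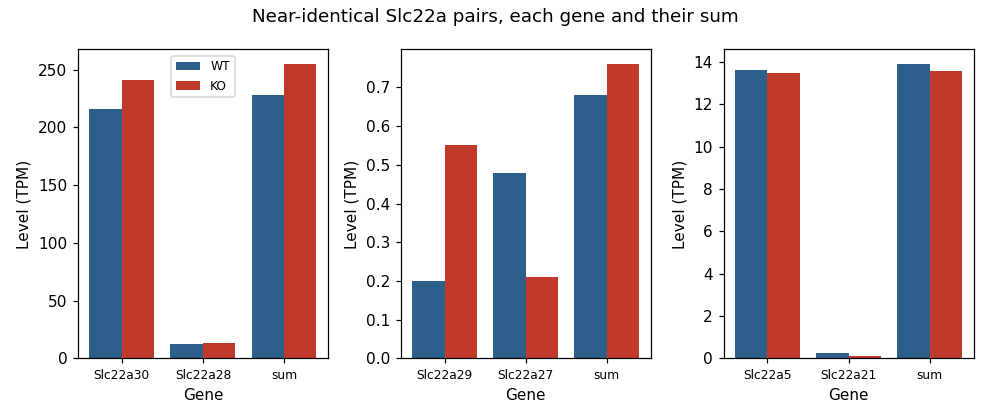
Level in TPM of 3 pairs of similar Slc22a genes and of their sums, as bars from 0 for the WT and the KO library, with a separate scale for each pair. The sums have KO to WT ratios of 0.977 to 1.12, with 0.68 TPM (WT) and 0.76 TPM (KO) for Slc22a29 and Slc22a27, whose single bars differ in opposite directions.

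Slc22a7 (OAT2, chromosome 17), the main hepatic organic anion transporter of this family outside the block, was at 19.42 (KO) and 17.57 TPM (WT), with an interval of -0.01 to 0.33. The renal carriers Slc22a6 (OAT1), Slc22a8 (OAT3) and Slc22a12 (the urate carrier URAT1) were between 0.01 and 0.07 TPM. Kidney tubule markers summed to 0.83 (KO) and 0.67 TPM (WT) over 10 genes, none above 0.23 TPM, so that the defining markers of kidney tissue were near 0.

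The remaining expressed Slc22a genes have less settled substrates. Slc22a18, which lies in an imprinted domain of chromosome 7, was at 57.53 (KO) and 58.37 TPM (WT), with an interval of -0.12 to 0.11. Slc22a23, an orphan carrier, was at 25.24 and 23.40 TPM with an interval above 0 (0.04 to 0.20), and Slc22a15 was at 2.49 and 2.18 TPM with an interval of -0.06 to 0.46. Slc22a transcripts summed to 621.45 (KO) and 567.33 TPM (WT), a log2 ratio of 0.13 with an interval of 0.12 to 0.18 for the sum of the authors' means. Slc22a30 made up 38.8% and 38.1% of these sums. Both families together came to 1770.84 (KO) and 1751.40 TPM (WT), a ratio of 1.01.

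**Figure D3:**
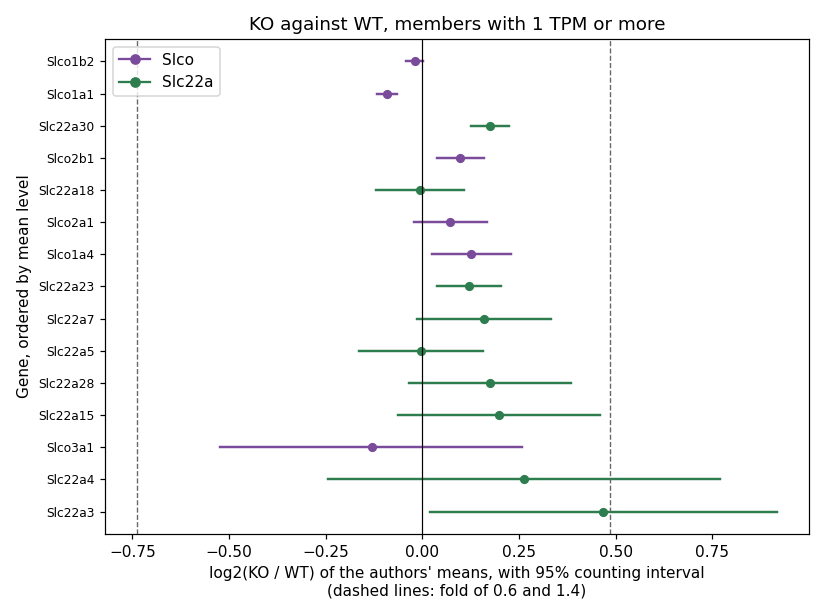
The log2 ratio of the authors' means, KO to WT, with its 95% counting interval, for 15 members with 1 TPM or more, ordered by mean level. The intervals of Slc22a30, Slco2b1, Slco1a4, Slc22a23 and Slc22a3 lie above 0, that of Slco1a1 lies below 0, and all 15 points lie inside the dashed lines at folds of 0.6 and 1.4.

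By counting error alone, on the scale of the authors' means, 5 of the 12 members above 10 TPM had an interval above 0. Of the others, 1 had an interval below 0 and 6 held 0, Slco1b2 only narrowly. Over the 6184 genes at that level that both deposited tables list, the shares were 14.5% above and 18.8% below. The intervals of 33.3% of these genes thus left out 0. The sizes were small, with folds between 0.931 for Slco1a1 and 1.12 for Slc22a30 on the scale with 1 TPM added. The 5th and the 95th percentile of the log2 change over genes above 10 TPM were -0.25 and 0.20, and the 12 members lay between -0.10 and 0.16.

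Most members under 1 TPM cannot be compared. Of these 25 genes, 12 are listed in the TPM table alone, at 0.01 to 0.07 TPM. They include the renal and testicular carriers Slc22a2, Slc22a6, Slc22a8, Slc22a12, Slc22a14, Slc22a16 and Slc22a19, Slco4c1, Slco5a1 and the Slco6 genes Slco6b1, Slco6c1 and Slco6d1. Another 7 had at most 3 estimated reads in both libraries (Slco4a1, Slco1c1, the blood-brain barrier carrier of thyroid hormone, Slco1a5, Slco1a6, Slc22a13, Slc22a20 and Slc22a22). For 5 of these the authors' mean was 0 in 1 library while the TPM there was 0.02 to 0.06, because the deposited TPM is a posterior mean that stays above 0 without reads. Values in this range were not read as expression. The other 6 had 4 or more reads in a library: Slc22a29, Slc22a27, Slc22a21 and Slc22a26, described above, Slc22a17 (0.33 (KO) and 0.38 TPM (WT)), and the pseudogene Slc22a13b-ps (0.31 and 0.48 TPM), which shares 30.5% of its windows with Slc22a13.

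Other carriers and regulators were compared on the same scale, as lists written from general knowledge. Of 15 other uptake carriers, 11 had a mean level of no less than 1 TPM, 9 of them lay above 0, 0 passed a fold limit and the median log2 change was 0.05. The sodium-dependent bile salt carrier Slc10a1 was at 349.47 (KO) and 345.74 TPM (WT), and the list ran from -0.06 for Slc35d1 to 0.20 for Slc13a3. Of 15 efflux carriers, which empty the hepatocyte into bile or blood, 11 were measured at that level, 4 lay above 0, 0 passed a fold limit and the median was -0.08. The lowest was Abcg8 (-0.29), which with Abcg5 exports sterols, and the highest was Slc47a1 (0.14), the MATE1 carrier that exports organic cations. The bile salt pump Abcb11 was at 301.85 and 326.90 TPM, and Abcc2, which exports conjugates, at 204.67 and 224.27 TPM. Of 20 regulators of hepatic carriers, 19 were measured, 9 lay above 0, 1 passed the limit of 1.4 and 0 that of 0.6, and the median was -0.003. That one was Bcl6, a repressor in growth hormone signalling, at 22.55 (KO) and 13.40 TPM (WT), and the lowest was Foxa2 (-0.48). PXR itself (Nr1i2) was at 50.45 (KO) and 59.93 TPM (WT). The receptor CAR (Nr1i3) went the other way, at 83.36 (KO) and 72.46 TPM (WT).

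**Figure D4:**
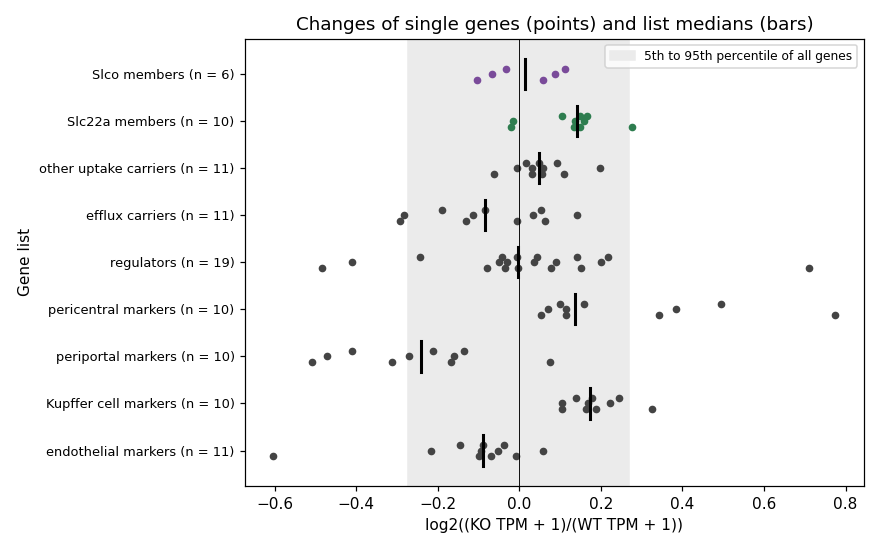
Single genes (points) and list medians (bars) on the log2((KO TPM + 1)/(WT TPM + 1)) scale for genes with a mean level of no less than 1 TPM, with the 5th to 95th percentile of all genes shaded. The median is 0.01 for Slco, 0.14 for Slc22a, -0.08 for efflux carriers, 0.14 for pericentral markers and -0.24 for periportal markers.

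Genes that share known inputs with Slco1a4 and Slco1a1 differed in direction among themselves. Of 22 targets of CAR and PXR (the receptors Nr1i3 and Nr1i2), 20 were measured, 12 lay above 0, 3 passed the upper limit (Cyp2b10 at 0.99, Cyp3a11 at 0.49 and Cyp2c55 at 0.49), 0 passed the lower one, and the median was 0.03, with Gstm3 lowest at -0.67. Of 22 male-biased genes, 22 were measured, 16 lay above 0 and 1 passed the upper limit (Susd4, 0.62), with a median of 0.07 and Mup20 lowest at -0.71. Of 23 female-biased genes only 8 were measured, with a median of 0.26, 3 past the upper limit (Cyp2c69 at 1.58, Cyp4a10 at 0.72 and Cyp2c40 at 0.65) and Cyp2a4 past the lower one at -5.88. Transcript windows shared with other genes were measured for the carriers only, not for the genes of these lists.

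The liver itself was as labelled, with Alb at 47242 (KO) and 49729 TPM (WT). Over 10 hepatocyte markers the median log2 change was -0.05, over 11 stellate cell markers -0.14 and over the 6 measured of 8 cholangiocyte markers -0.10. Markers of zones and of other cells moved beside the carriers. All 10 pericentral markers lay above 0 (median 0.14, summed TPM 2143.81 in KO and 1891.56 in WT), with Tbx3 (0.78) and Rhbg (0.49) past the upper limit, while 1 of 10 periportal markers lay above 0 (median -0.24, summed TPM 4202.66 and 4972.07, lowest Sds at -0.51). All 10 measured Kupffer cell markers lay above 0 (median 0.17, summed TPM 399.36 and 350.71), and 1 of 11 endothelial markers did (median -0.09, summed TPM 246.06 and 266.47), beside 29.81 and 28.58 TPM of the endothelial carrier Slco2a1. Fewer cells of a type and less RNA per cell cannot be told apart in such pools, and the part of these markers in the differences of Slc22a30 and Slco1a1 was not tested.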

How the data were processed

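Liver total RNA, pooled per genotype (stranded total RNA kit), was sequenced as 1 library per genotype, 2 in all. Per the labels and the study's methods, the authors made FASTQ files with CASAVA 1.8.2 and ran RSEM 1.2.09 with Bowtie on paired reads against mm10 (GRCm38). They deposited posterior mean TPM per gene, summing to 1005325 for the KO library and 994702 for the WT library. The authors also deposited a signal per library from EBSeq (estimated reads divided by a size factor, called the authors' mean here), for 16318 genes including 29 of the 41 members. Their fold changes and posterior probabilities were not used.

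The most frequent value of the authors' means (1.16 in KO and 0.860 in WT) was taken as 1 read, and 78.4% and 75.0% of values were then whole within 0.02, too few for a count test. Changes are log2((KO TPM + 1)/(WT TPM + 1)), which understates the change of low genes. Fold limits of 1.4 and 0.6 are those of the study, used without its probability. Intervals are Clopper-Pearson at 95% from estimated reads rounded to whole numbers. Named with values were Pgrmc1, each member with 1 TPM or more in either library or past a fold limit, and of each list the highest and lowest change and genes past a limit, among genes with a mean of 1 TPM or more. Any other gene with a value (Slc10a1, Abcb11, Abcc2, Nr1i2, Nr1i3, Alb and the members under 1 TPM) was chosen after its values were seen. Some single-gene values are not reported here, while counts, medians and sums cover all members. Members and lists were chosen with earlier results of these data known. The coding stretch and promoters were chosen after the alignments. Transcript windows and coding sequences come from GENCODE vM21, gene positions and promoters from RefSeq (GRCm38.p6), where 40 of 41 symbols matched. Code was tested on simulated data with whole counts and no shared reads. Python 3.11.15, numpy 2.4.6, pandas 2.3.3, scipy 1.17.1, matplotlib 3.10.9 and MAFFT 7.526 were used. Alternatives were another pseudocount, other filters and limits, the authors' means, centring, rescaling and summed copies.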

Additional observations from a re-analysis of the deposited data

How the results depend on the processing

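The alternatives covered pseudocount, table, scaling, filter, fold limits and summed copies. No paired analysis was possible because only 1 pooled library was made per genotype. For the 16 members with 1 TPM or more, 64 values under 4 alternatives each stayed within counting error of the reported change, and 0 changed sign. Some still shifted in size. In this alternative, 1 was added to each of the authors' means of a gene, unlike in the log2 ratio of the authors' means given above. With the authors' means, Slc22a3 went from 0.28 to 0.46, Slco3a1 from -0.07 to -0.13 and Slc22a18 from -0.02 to -0.006. A sum was taken as moved where it differed by more than its counting error, and a count where it changed by over 1.5 times. For a median the limit was the median width on 1 side of the single genes' counting intervals. That limit is lenient for a median over several genes, so a small shift counts as not moved. By that measure 7 of 72 values moved. Within these limits, 4 medians or sums still changed by over 1.5 times or in sign. The member median was 0.014 without a filter, the efflux median -0.045 at 10 TPM or more, and with the authors' means the regulator median was 0.0082 and the log2 ratio of all summed members 0.0093. With 0.1 TPM added, 1 member passed the upper limit (Slc22a29) and 2 the lower one (Slc22a27 and Slc22a21). With the authors' means and 1 added to each, 2 passed upward (Slc22a29 and Slc22a22) and 6 downward (Slc22a27, Slc22a21, Slco1a5, Slco1a6, Slc22a13 and Slc22a20), all under 1 TPM. After rescaling without the 50 most abundant genes, 1 passed upward (Slc22a29). The log2 ratio of all summed members went from 0.02 to 0.046 without Slco1b2, as leaving out the most abundant member implies, and the hepatocyte marker median was -0.034 with the authors' means. The cause of the other moves was not tested. Across scalings, the median change over all genes was -0.01 to 0. Depth limits the members under 1 TPM, and pooling limits the abundant ones.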

Other observations

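Among members that lie side by side in the genome, levels differed widely in both libraries. In the Slco1 cluster of chromosome 6, Slco1b2, Slco1a1 and Slco1a4 were at 670.48, 355.15 and 27.77 TPM in KO, while Slco1c1, Slco1a5 and Slco1a6 were at 0.07, 0.06 and 0.03 TPM. The coding sequence of Slco1a5 is 89.4% identical to that of Slco1a4 and 88.0% identical to that of Slco1a1. Summed over the cluster, levels were 1053.56 (KO) and 1093.26 TPM (WT), with an interval of -0.06 to -0.03 for the sum of the authors' means.

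Within a library, where no scaling between libraries enters, the ratio of Slc22a30 to Slco1a1 was 0.679 in KO and 0.566 in WT.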
